A study of Homo sapiens with 16 samples.

Results

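MOLM13 is a human acute myeloid leukemia (AML) line of the monocytic subtype, and 8 of the 16 libraries of the study come from it. The other 8 come from K562, a line from a chronic myeloid leukemia in blast crisis. MOLM13 cells were treated in culture medium for 4 h with 20 μM Ro, a small molecule that the study uses as an inhibitor of the RNA-binding protein MSI2, or with the vehicle, and all libraries carry 0.1% DMSO. The titles number the libraries 1 to 4, which gives 4 pairs of a DMSO and a Ro library, and each pair served as a block, so that Ro was compared with DMSO inside each pair. What the libraries of a pair share is not stated, so the p-values measure the spread between these samples, which may be technical. Of 25221 genes in the deposited table, 15031 reached 10 counts in 4 or more of the 8 MOLM13 libraries and were tested. The account below describes what changed among them, mainly outside the antioxidant genes driven by NRF2 and the mRNAs that the study follows as MSI2 targets. These are bulk cultures of an established line, so fewer cells of a kind and less RNA per cell cannot be told apart.

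Several regulatory systems that recur below are well known in blood cells. Genes of the DNA damage response stop the cell cycle (CDKN1A, GADD45A), start apoptosis (PMAIP1, BBC3) or limit the response itself (MDM2). Myeloid identity in AML rests on transcription factors such as CEBPA, MYB, GFI1, IRF8 and IKZF1, on homeobox factors that KMT2A (MLL) fusions keep active, and on granule proteases such as ELANE that mark immature myeloid cells. MSI2 binds mRNAs and supports self-renewal of leukemic cells.

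Sequencing started from the 3′ end of transcripts, so that long and short mRNAs weigh equally, and levels are given as CPM (counts scaled to library size) after TMM normalization. Total counts ranged from 8611944 to 39978791 with DMSO and from 14412389 to 21413885 with Ro. The uncharacterised locus LOC100507412 took between 4.11% and 24.3% of each library. Of 14 markers of monocytic AML, 13 were tested, and HOXA10 was listed at 0 in all 8 libraries. Their summed level ran from 1310 to 2070 CPM with DMSO and from 1120 to 1690 CPM with Ro. Red cell markers of K562 summed to 23.9 to 28.7 CPM with DMSO and 26.1 to 30.5 CPM with Ro over 8 tested of 18, with GATA1 at 2 counts or fewer in each library. The T cell markers CD3D and CD3E had at most 1 count each, the B cell marker MS4A1 had at most 2, and the B lineage factor PAX5 was present at 254 to 2546 counts. The libraries of pair 4 stood apart. Among the genes tested, the DMSO library of pair 4 was the highest of the 4 DMSO libraries for 37.0% and the lowest for 38.3%.

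After Ro, 141 genes were higher (0.938% of those tested) and 176 were lower (1.17%), at an adjusted p under 0.05 in edgeR's quasi-likelihood test with the pair as block. The changes were small. The median size was 0.48 on the log2 scale among the genes that rose and 0.38 among those that fell, and only 7 and 5 of them moved by more than 1. Their sign was the same in all 4 pairs for 138 of the 141 and 173 of the 176, against 24.6% of all genes tested. A test inside pairs favours genes with the same sign, so these shares only describe the calls. Levels in both arms overlapped for most of the called genes. The arms were fully apart for 16 genes that rose and 5 that fell, and for 1.32% of all genes tested. The called gene nearest to the threshold had an adjusted p of 0.0498, and the nearest gene outside it had 0.0501.

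The numbers rested on the block and on pair 3. With no replicate block, edgeR called 0 genes in either direction (126 and 49 at an unadjusted p under 0.05). Without pair 3, 27 genes rose and 22 fell, and without pair 1 the numbers were 47 and 59. The split by direction moved with the scaling. Higher genes made up 44.5% of the calls with TMM, 37.7% with DESeq2 size factors, 58.7% with upper-quartile scaling and 71.3% with total-count scaling. In DESeq2 with the block, which also changes the model and the test, the share was 24.6%. No named gene that had a value changed sign under these settings, and values were given for 88 of the 98 in DESeq2 and 97 without pair 3.

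**Figure D1:**
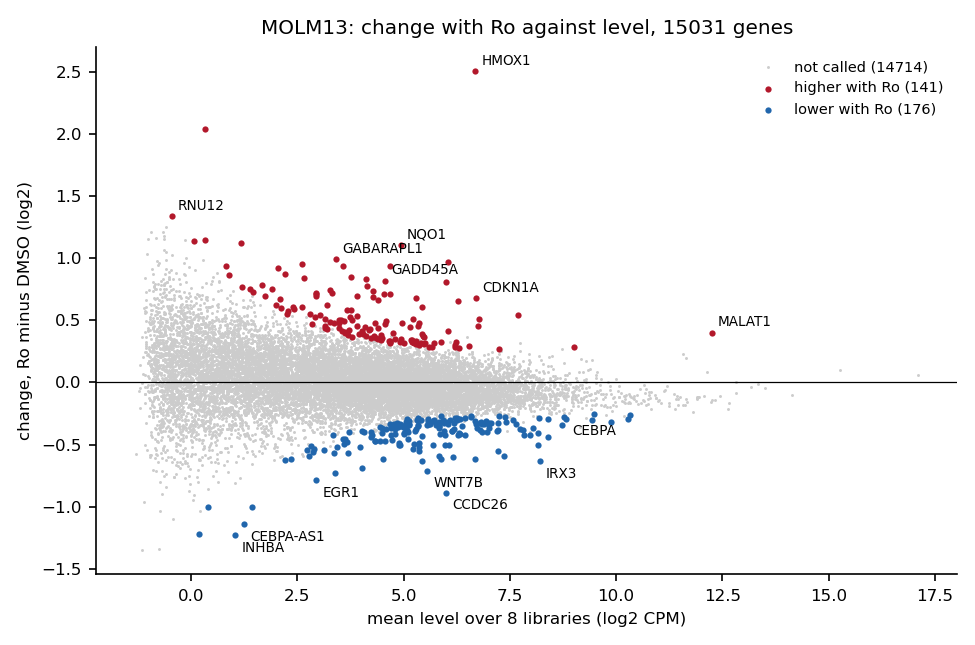
Each point is 1 of 15031 genes, with its mean level over the 8 MOLM13 libraries (log2 CPM) on the x axis and its fitted change with Ro (log2, Ro minus DMSO) on the y axis. The 141 genes called higher (red) have a median level of 18.8 CPM and the 176 called lower (blue) one of 47.5 CPM, against 12.6 CPM over all genes.

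Genes that fell were better expressed, more compact and more often coding than genes that rose. In level and in the share of noncoding RNAs, the raised genes lay nearer to all genes tested. The median level was 18.8 CPM for raised genes, 47.5 CPM for lowered genes and 12.6 CPM over all genes tested. Their median span in RefSeq was 54.8 kb and 17.1 kb, against 38.9 kb overall. Long noncoding RNAs made up 10.6% of the genes that rose, 3.98% of those that fell and 8.92% of all. These are descriptions of the called genes, with no test, and the power to call a gene also moves with its level.

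Outside the NRF2 and MSI2 lists, the gene with the smallest p was GADD45A. It encodes a DNA damage inducible regulator of growth arrest. Its level was 12.5, 17.4, 16.6 and 20.6 CPM with DMSO in pairs 1 to 4 and 24.8, 30.7, 31.5 and 31.7 CPM with Ro. Every Ro library lay above every DMSO library, and the change was 0.82 ± 0.09 on the log2 scale (SE, 4 pairs; adjusted p = 2.02e-05). CROCC, which encodes the ciliary rootlet protein rootletin, went from 8.26, 10.1, 8.48 and 5.72 CPM to 17.4, 17.1, 18.1 and 10.5 CPM. Its arms did not overlap either (0.94 ± 0.11, adjusted p = 2.92e-05). GABARAPL1, a member of the ATG8 family that coats autophagosomes, rose 1.99-fold, from 9.31, 6.85, 9.13 and 3.55 CPM to 23.4, 13.0, 15.2 and 7.63 CPM (adjusted p = 4.13e-05). Here pair 4 with Ro sat within the DMSO range, although all 4 pairs rose.

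The other raised genes with the smallest p have varied roles. HHAT, the acyltransferase of Hedgehog ligands, rose by 0.78 ± 0.10, and RIT1, a RAS-like GTPase, rose by 0.74 ± 0.10 with arms that did not overlap. CRIM1, a transmembrane protein that binds bone morphogenetic proteins, rose by 0.66 ± 0.09. EEPD1, a nuclease-domain protein of DNA repair, rose by 0.68 ± 0.10, and TEX14, known from germ cell bridges, by 0.70 ± 0.11. The noncoding RNA NEAT1, the scaffold of nuclear paraspeckles, went from 74.2, 63.5, 53.7 and 43.5 CPM to 161, 76.7, 93.5 and 59.6 CPM (adjusted p = 0.000648), and its rise was larger in pairs 1 and 3 than in pairs 2 and 4. Among the 12 raised and 12 lowered genes with the smallest p outside those lists, all 24 kept their call when any of the 4 pairs was left out. Of all 98 named genes, 36 did.

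**Figure D2:**
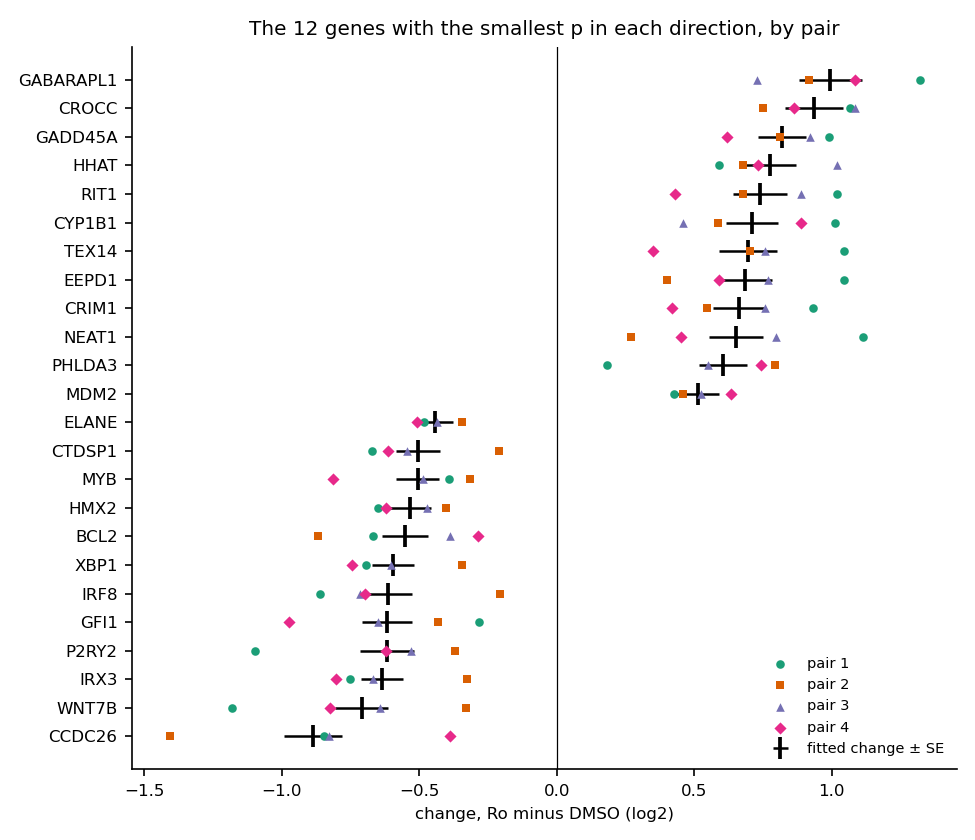
Points give the log2 change of each pair (Ro minus DMSO, x axis) for the 12 raised and 12 lowered genes with the smallest p outside the NRF2 and MSI2 lists, and black marks give the fitted change with its SE. Every pair value lies on the side of the fitted change, from GABARAPL1 at 1.00 to CCDC26 at -0.89.

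Among the lists, the DNA damage response genes had the largest share of raised genes after NRF2 targets. The list under this label holds genes of arrest, death and repair that were gathered by a shared regulator and not by a response to damage. DNA damage itself was not measured. Of 36 tested, 10 rose (27.8%) and 1 fell, and their median change was 0.19, against 0.00 over all genes tested. The background for this and every list below is all genes tested, of which 0.938% rose and 1.17% fell. At an unadjusted p under 0.05, 1135 of all 15031 were higher and 1450 lower. The lists and their members were chosen with earlier results of these data known, which can raise such shares. The raised members of the DNA damage list were CDKN1A, MDM2, GADD45A, PMAIP1, BBC3, PHLDA3, POLH, PLK2, KITLG and GDF15. CDKN1A, the cell cycle inhibitor p21, which the study also follows as an MSI2 target, was at 37.5, 88.3, 93.9 and 90.02 CPM with DMSO and at 48.7, 137, 145 and 181 CPM with Ro (0.68 ± 0.08, adjusted p = 8.32e-05). Pair 1 was low in both arms, and the rise was largest in pair 4. MDM2, a ubiquitin ligase, went from 36.2, 40.8, 33.8 and 14.2 CPM to 48.7, 56.2, 48.7 and 22.2 CPM, a rise of 0.51 ± 0.08 that was close in size in all pairs (0.43 to 0.64). PHLDA3, a repressor of AKT signalling, rose by 0.61 ± 0.09.

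Among the BCL2 family, 2 of 15 tested genes rose and 1 fell. The proapoptotic genes PMAIP1 (NOXA) and BBC3 (PUMA) rose by 0.48 ± 0.08 and 0.32 ± 0.08, the latter with an adjusted p of 0.0444. BCL2 itself, the antiapoptotic member that AML cells depend on, fell from 155, 264, 171 and 122 CPM to 97.7, 144, 131 and 100.3 CPM (-0.55 ± 0.08, adjusted p = 0.000752). The drop was largest in pair 2. MCL1, which protects the same cells, gave -0.03 ± 0.07 and an adjusted p of 0.874. The gene of the DNA damage list that fell was DDIT4, an inhibitor of mTORC1, at -0.42 ± 0.09. Its level in pair 4 (856 CPM with DMSO and 569 CPM with Ro) was far above that in the other pairs (44.7 to 136 CPM), and its adjusted p was 0.142 without pair 1, 0.129 without pair 3 and 0.0504 without pair 4. Over the list, 5 genes rose without pair 2, 5 without pair 3, and 5 in DESeq2 with the block.

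A pair of further noncoding RNAs was picked out after their values had been seen. LINC01021, a long noncoding RNA, was at 1.84, 4.66, 3.55 and 1.25 CPM with DMSO and at 3.99, 6.51, 7.24 and 3.07 CPM with Ro (0.92 ± 0.16, adjusted p = 0.00339). The entry listed as MIR34A, typed as a long noncoding RNA in RefSeq and overlapping the span of LNCTAM34A, rose by 0.67 ± 0.15 (adjusted p = 0.0201).

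**Figure D3:**
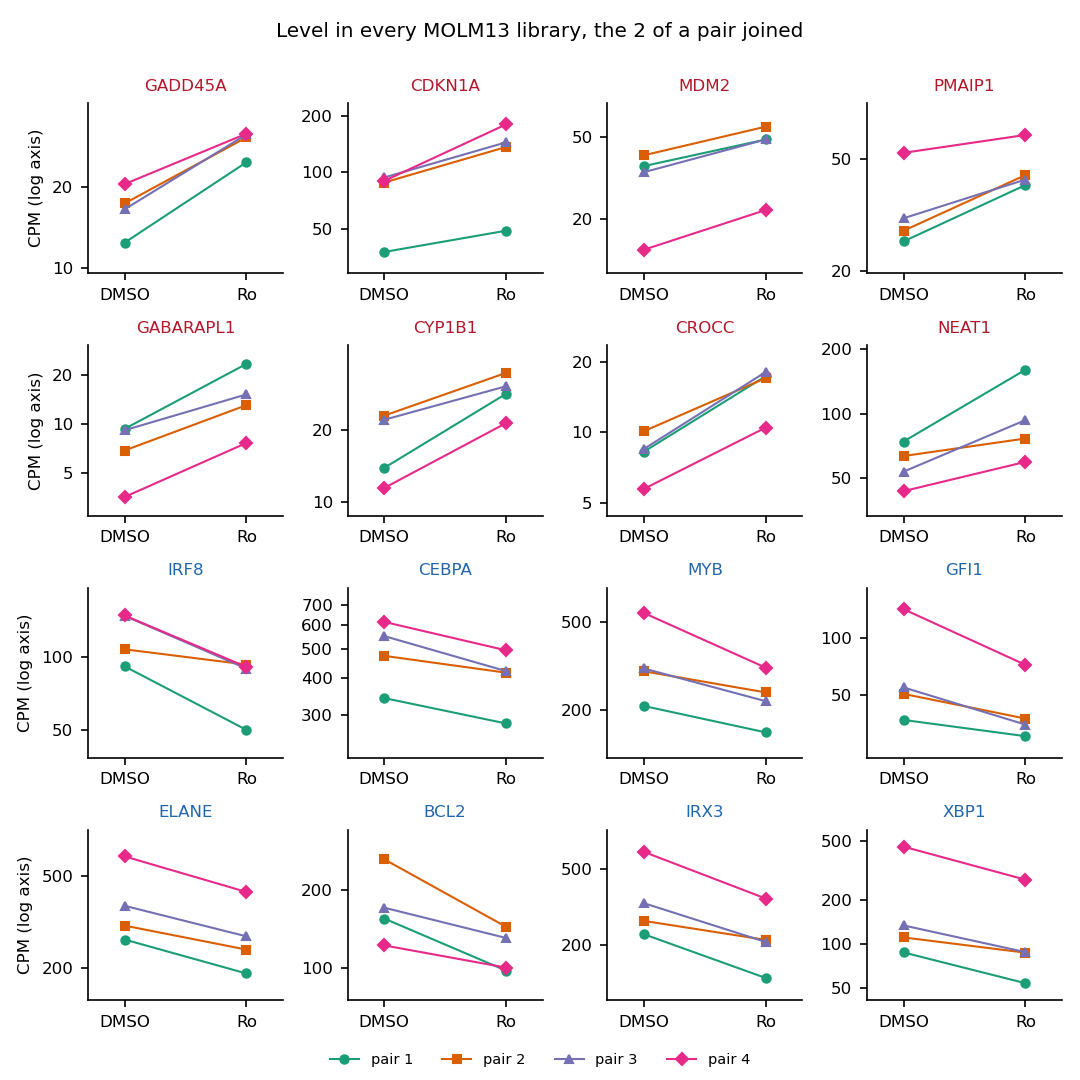
Each panel gives the level of 1 gene (CPM, log axis) in the 4 DMSO and the 4 Ro libraries, with the libraries of a pair joined by a line. Titles in red mark genes that rose and in blue genes that fell. Every line runs in the direction of the fitted change, which the choice of most of these genes required. The pairs often stand far apart, as for XBP1, at 457 CPM in pair 4 and 87.7 to 134 CPM in the other DMSO libraries.

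Detoxifying genes held the largest share of raised genes among the lists. NRF2 targets had 13 of 36 raised and 0 lowered (20 and 0 at an unadjusted p under 0.05; 13 raised in limma-voom and 7 in DESeq2 with the block), with HMOX1, NQO1, SRXN1, GCLM and SLC7A11 among them. Without pair 1, 7 of them passed, and without pair 3, 6. Of 8 tested targets of the aryl hydrocarbon receptor, which senses aromatic compounds, CYP1B1 and NQO1 rose, and NQO1 is also on the NRF2 list. CYP1B1, a monooxygenase of steroids and aromatic compounds, went from 13.9, 22.9, 22.0 and 11.5 CPM to 28.2, 34.4, 30.3 and 21.3 CPM (0.71 ± 0.10, adjusted p = 0.000195). AHRR and TIPARP, which the same receptor drives, gave 0.11 ± 0.07 and 0.09 ± 0.10 and did not pass the test. Among autophagy and lysosome genes, 2 of 38 rose, GABARAPL1 and the cargo receptor SQSTM1 (0.45 ± 0.09), and SQSTM1 is on the NRF2 list as well.

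Heat shock factor 1 chaperone genes had 2 of 22 raised, among them the cochaperone DNAJB6 (0.27 ± 0.07). The stress-inducible HSPA1B and DNAJB1 gave 0.27 ± 0.14 and 0.14 ± 0.07 and did not pass. None of this list passed without pair 1, pair 3 or pair 4 (edgeR). In the NF-kB and inflammation list, 3 of 27 rose, which were TBK1 (0.48 ± 0.09), MALT1 (0.44 ± 0.09) and TNFAIP2 (0.48 ± 0.09), and TNFAIP8 fell (-0.43 ± 0.10). TBK1 and MALT1 encode signalling enzymes of innate and antigen receptor pathways. TMEM173 (STING), an innate sensor that signals through TBK1, fell by 0.39 ± 0.07 and was the only interferon response gene of 26 called in this fit. Metal response genes (6 tested) and cholesterol synthesis genes (29 tested) had 0 calls in edgeR. At an unadjusted p under 0.05, 1 and 1 of them were higher and 0 and 4 lower, against 1135 higher and 1450 lower of all 15031 genes. In both lists limma-voom and DESeq2 called 0.

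XBP1, the transcription factor of the unfolded protein response, fell and was the only gene of 28 called in that list by edgeR, while limma-voom and DESeq2 with the block called 2 lower. It was at 87.7, 111, 134 and 457 CPM with DMSO and at 54.3, 87.4, 88.1 and 273 CPM with Ro (-0.59 ± 0.08, adjusted p = 0.000105). All pairs fell, by 0.34 to 0.74, and the call held without pair 4 (adjusted p = 0.000335). Among ATF4 targets, SLC7A11 rose and DDIT4 fell of 26 tested, and ASNS and TRIB3, which ATF4 drives, gave 0.03 ± 0.09 and -0.19 ± 0.10. FOSL2, an AP-1 subunit, fell by 0.60 ± 0.10. EGR1, an immediate early factor, fell by 0.78 ± 0.19, but this rested on pair 4, where it went from 26.3 to 9.95 CPM against 1.81 to 5.24 CPM in the other libraries, and without pair 4 the adjusted p was 0.659. FOS and JUN gave -0.24 ± 0.15 and 0.12 ± 0.10 and did not pass.

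Some blood lineage transcription factors fell. Of 35 tested, 9 fell (25.7%, against 1.17% of all genes tested) and 1 rose (2.86%, against 0.938%), which was PRDM1 (0.75 ± 0.12). The median change was -0.11, and 12 of the 35 had a change above 0. Those that fell were CEBPA, GFI1, IRF8, MYB, IKZF1, EGR1, ETV6, MEF2D and WT1. IRF8, which directs monocyte and dendritic cell fate, was at 91.2, 107, 147 and 147 CPM with DMSO and at 50.2, 92.8, 89.4 and 90.8 CPM with Ro (-0.61 ± 0.09, adjusted p = 0.000396). GFI1, a repressor needed for granulocytes, went from 36.8, 50.6, 54.7 and 142 CPM to 30.2, 37.5, 34.8 and 72.0 CPM (-0.62 ± 0.09, adjusted p = 0.000607). In both genes each pair fell, and pair 4 of GFI1 stood at a level above the other pairs in both arms.

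MYB, a factor that AML cells need to proliferate, fell from 209, 300, 309 and 548 CPM to 159, 241, 220 and 311 CPM (-0.51 ± 0.08, adjusted p = 0.000824). CEBPA, the main factor of granulocyte and monocyte commitment, fell less, from 342, 473, 550 and 613 CPM to 282, 416, 421 and 493 CPM (-0.29 ± 0.07, adjusted p = 0.0226). The low-level transcript CEBPA-AS1, named as its antisense RNA, fell by 1.14 ± 0.20, from 0.787 to 4.82 CPM with DMSO to 0.399 to 1.89 CPM with Ro. SPI1 (PU.1) and RUNX1 gave -0.11 ± 0.09 and 0.06 ± 0.07 and did not pass. Of this list, 3 genes fell without pair 1, 4 without pair 3 and 5 with total-count scaling.

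Homeobox genes had 7 of 26 lowered and 0 raised (12 and 1 at an unadjusted p under 0.05; limma-voom and DESeq2 with the block also raised 0), with a median of -0.26. They were IRX3, HMX2, BARX1, HOXA13, DLX4, DLX5 and ONECUT2. IRX3, a homeobox factor that is expressed in many acute leukemias, went from 229, 268, 331 and 610 CPM to 136, 214, 209 and 350 CPM (-0.64 ± 0.08, adjusted p = 6.62e-05), and each pair fell. HMX2 fell by 0.54 ± 0.08 and BARX1 by 0.49 ± 0.08. HOXA9 and MEIS1, the homeobox pair that KMT2A fusions drive, gave -0.14 ± 0.08 and 0.08 ± 0.07 and did not pass. The number that fell was 3 without pair 3, 4 without pair 1 and 4 with total-count scaling. Of 25 chromatin and stem cell dependencies of KMT2A leukemia, BMI1, a Polycomb repressor, fell by 0.42 ± 0.07 and BCL2 fell, while CDK6 gave -0.14 ± 0.06.

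Granule genes of immature myeloid cells had 4 of 22 lowered and 0 raised (8 and 0 at an unadjusted p under 0.05; limma-voom and DESeq2 with the block gave the same counts). ELANE, neutrophil elastase, fell from 266, 305, 372 and 606 CPM to 190, 241, 275 and 426 CPM (-0.44 ± 0.07, adjusted p = 0.000648). PRTN3 (proteinase 3) fell by 0.41 ± 0.07, RNASE2 (an eosinophil-derived ribonuclease) by 0.33 ± 0.08 and SRGN (serglycin, the granule proteoglycan) by 0.31 ± 0.07. MPO (myeloperoxidase) gave 0.15 ± 0.15, with 56.3 CPM in pair 4 with Ro against 5.74 to 30.1 CPM elsewhere. RAB27A, a GTPase of granule secretion, fell by 0.42 ± 0.07. Without pair 1 and without pair 3, 1 granule gene fell in each case. Monocyte and macrophage genes moved both ways, with TBXAS1 (thromboxane synthase, 0.44 ± 0.08) and TNFAIP2 raised and the oxidase subunit NCF4 (-0.35 ± 0.08) lowered of 25.

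Surface receptors also moved in both directions. Among 32 cytokine, chemokine and purinergic receptors, 5 fell and 2 rose. P2RY2, a receptor for extracellular ATP and UTP, went from 25.7, 32.4, 31.9 and 20.3 CPM to 12.0, 25.0, 22.0 and 13.2 CPM (-0.62 ± 0.10, adjusted p = 0.00147). CXCR4, which holds leukemic cells in the marrow, fell by 0.41 ± 0.08, and IL17RA, P2RX7 and NTSR1 fell by 0.40, 0.51 and 0.41. CNR2 (a cannabinoid receptor, 0.50 ± 0.10) and P2RY6 (0.38 ± 0.09) rose. Without pair 3, 1 gene fell and 0 rose. WNT7B, a secreted WNT ligand outside this list, fell from 35.4, 50.8, 56.5 and 85.5 CPM to 15.6, 40.4, 36.2 and 48.3 CPM (-0.71 ± 0.10, adjusted p = 0.000212). FLT3 gave 0.02 ± 0.07 (adjusted p = 0.929).

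**Figure D4:**
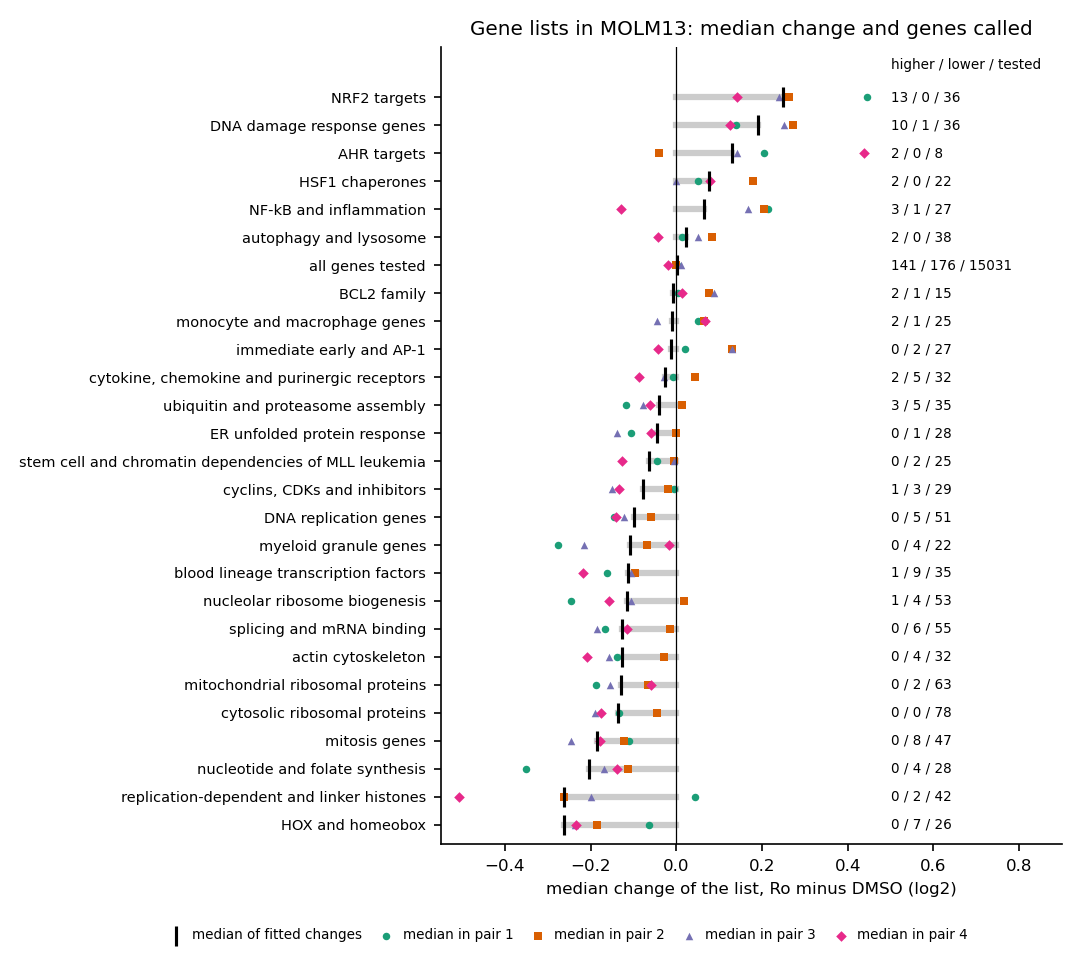
For each gene list shown and all genes tested, the black mark gives the median fitted change of the list's tested members (log2, Ro minus DMSO) and the coloured points the median in each pair; the figures at the right give the numbers called higher, called lower and tested. NRF2 targets (0.25) and DNA damage response genes (0.19) lie furthest to the right, and homeobox genes and histones (both -0.26) furthest to the left.

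A minority of the genes of cell division fell, each by a small amount. Of 47 mitosis genes, 8 fell and 0 rose (27 and 0 at an unadjusted p under 0.05; 8 and 10 fell and 0 rose in limma-voom and DESeq2 with the block), with a median of -0.19, and 2 of the 47 had a change above 0. KNSTRN (a kinetochore and spindle protein) fell by 0.47 ± 0.09, HMMR (a spindle and hyaluronan-binding protein) by 0.40 ± 0.08 and the checkpoint protein BUB3 by 0.33 ± 0.07. CDKN3, a phosphatase of CDKs, fell by 0.47 ± 0.08. CCNB1, cyclin B1, went from 80.4, 80.8, 92.2 and 98.4 CPM to 65.3, 70.8, 70.0 and 79.8 CPM, so that the arms did not overlap (-0.30 ± 0.07, adjusted p = 0.0289). No mitosis gene passed without pair 3 (edgeR), 1 passed without pair 1, and 4 passed with total-count scaling.

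DNA replication genes had 5 of 51 lowered and 0 raised (18 and 2 at an unadjusted p under 0.05), with MCM2 and MCM7 of the replicative helicase at -0.33 ± 0.07 and -0.33 ± 0.08. CDCA7, a regulator of DNA methylation, fell by 0.52 ± 0.09 and the uracil glycosylase UNG by 0.38 ± 0.09. The number that fell was 8 in DESeq2 with the block, 2 with total-count scaling, 1 without pair 1 and 0 without pair 3. Nucleotide and folate synthesis had 4 of 28 lowered, which were PRPS1 (-0.32 ± 0.08), ADSS (-0.28 ± 0.07) and the carriers SLC29A1 (nucleosides, -0.42 ± 0.10) and SLC19A1 (folate, -0.31 ± 0.08). Only 4 of these 28 genes had a change above 0, but with total-count or upper-quartile scaling 0 passed in edgeR, as without pair 1 or pair 3, and 8 fell in DESeq2 with the block. The linker histones HIST1H1E (-0.41 ± 0.09) and HIST1H1B (-0.29 ± 0.08) fell of 42 histone genes. Their mRNAs normally lack the poly(A) tail, and the histone median differed between pairs, from 0.04 in pair 1 to -0.51 in pair 4.

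RNA processing and ribosome genes lay slightly below 0 as well. Of 55 splicing and mRNA-binding genes, 6 fell, with HNRNPU at -0.32 ± 0.07, PTBP1 at -0.29 ± 0.07 and CCNL2 at -0.37 ± 0.08. The number that fell was 11 in limma-voom, 12 in DESeq2 with the block, 1 with total-count scaling, 1 without pair 1 and 0 without pair 3. Of 53 nucleolar genes, 4 fell (BOP1 by 0.27 ± 0.07, POP5 by 0.34 ± 0.08) and WDR74 rose by 0.88 ± 0.17. With total-count or upper-quartile scaling, and without pair 1, 2 or 3, 0 nucleolar genes fell. WDR74 shares its span with the U2 small nuclear RNA gene RNU2-2 in RefSeq, so its reads are uncertain. The small nuclear RNA RN7SK, which restrains transcription elongation, rose by 0.83 ± 0.14. RNU12 (1.34 ± 0.33) had only 1 to 16 counts with DMSO, and its adjusted p was 0.116 without pair 1 and 0.1 without pair 2 in edgeR. Of 78 cytosolic ribosomal protein genes, 0 were called in edgeR (39 were lower and 0 higher by the unadjusted p), while limma-voom called 2 and DESeq2 5 of them lower. Their median was -0.14, and it was -0.02 once the trend of the change on mean expression had been removed. The same correction brought translation factors from -0.12 to -0.04 and DNA replication genes from -0.10 to -0.05, but left mitosis genes at -0.14, nucleotide synthesis at -0.17 and homeobox genes at -0.28.

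The remaining lists held few calls each. The share lowered was 10.3% for cyclins, CDKs and inhibitors, 12.5% for actin genes and 14.3% for ubiquitin and proteasome assembly. It was 6.06% for glycolysis and hypoxia and 4.55% for synthetases, against 1.17% of all genes tested. These lists too were chosen with earlier results of these data known, which can raise the shares. Of 29 cyclins, CDKs and inhibitors, CDKN1A rose, and CCNB1, CDKN3 and CDKN1B (p27, -0.32 ± 0.08) fell. Of 32 actin cytoskeleton genes, 4 fell and 0 rose (13 and 2 at an unadjusted p under 0.05; limma-voom and DESeq2 with the block also raised 0), among them the actin crosslinker ACTN1 (-0.33 ± 0.07) and the intermediate filament gene VIM (-0.31 ± 0.07), and with total-count scaling, or without pair 1 or pair 3, 0 passed in edgeR. Of 35 genes of ubiquitin and proteasome assembly, 3 rose, among them the ligases UBR1 and UBR3 (both 0.31), and 5 fell, among them NAE1 (-0.34 ± 0.07), which activates NEDD8. With total-count scaling 3 rose and 0 fell, and without pair 1 or pair 3 none passed. IRS2, an insulin receptor adaptor, and UCP2, a mitochondrial carrier, fell by 0.37 and 0.38 of 33 glycolysis and hypoxia genes. FARSA, a subunit of phenylalanyl-tRNA synthetase, fell by 0.37 ± 0.08 as the only call of 22 synthetase genes.

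Output genes of FLT3, STAT5 and ERK signalling, the pathway that the internal tandem duplication of FLT3 keeps active in MOLM13, had 1 of 33 raised and 2 lowered. The ERK phosphatase DUSP4 rose by 0.48 ± 0.12, and ETV6 (-0.32 ± 0.07) and EGR1 fell. Of the 5 MSI2 targets followed by the study, CDKN1A rose and MYC fell (-0.63 ± 0.13, adjusted p = 0.00868), from 30.4, 41.6, 49.9 and 76.3 CPM to 11.1, 29.0, 27.9 and 71.8 CPM. All pairs of MYC fell, by 0.09 in pair 4 and by 1.45 in pair 1. The adjusted p of MYC was 0.0627 without pair 1, 0.0628 without pair 2 and 0.162 without pair 3 in edgeR, 0.137 in DESeq2 with the block and 0.27 in the robust fit. Mitochondrial ribosomal protein genes had 2 of 63 lowered, MRPL37 and MRPL24, and 0 with upper-quartile or total-count scaling or without pair 1, 2 or 3. Proteasome subunits (37 tested) and respiratory chain genes (77 tested) had 0 calls in edgeR, limma-voom and DESeq2 with the block. By the unadjusted p in edgeR, 3 and 15 were lower and 1 and 1 higher, against 1450 lower and 1135 higher of all 15031 genes. Translation factors (39 tested) had 0 calls in edgeR and limma-voom and 2 lower in DESeq2 with the block, although 10 were lower and 1 higher by the unadjusted p.

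Families taken by symbol held few calls each, but some shares were above those over all genes tested (0.938% raised, 1.17% lowered). Of 400 ZNF genes, 3 rose (0.75%) and 2 fell (0.5%), which is below the shares over all genes tested. DNAJB6 and DNAJC11 rose of 36 DNAJ genes (5.56%), and 0 passed without pair 2 or pair 3 (edgeR). Of 284 SLC transporters, 6 rose (2.11%), among them the cystine carrier SLC7A11, and 9 fell (3.17%). With total-count scaling 6 rose and 2 fell, with upper-quartile scaling 6 and 3, without pair 1 the numbers were 1 and 1, and without pair 3 they were 0 and 1. RAB24 and RAB27A fell of 50 RAB genes (4%). Among the named coding genes outside the lists, the largest changes were found at low levels. CNTNAP3B, an adhesion protein gene, went from 1.05, 2.19, 1.17 and 1.12 CPM to 2.79, 3.32, 3.35 and 2.63 CPM (1.13 ± 0.21, adjusted p = 0.00412), and its arms did not overlap. APBB3 rose by 1.15 ± 0.27, with arms apart as well. Smaller changes were seen for FGF16, a fibroblast growth factor (-0.73 ± 0.12), and for the phosphatase CTDSP1 (-0.51 ± 0.08). CTDSP1 was at 46.3 to 132 CPM with DMSO.

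Long noncoding RNAs gave some of the largest changes. By their symbols, 10 of 511 rose (1.96%) and 5 fell (0.978%). CCDC26 showed the smallest p of all lowered genes and fell from 97.3, 142, 77.6 and 24.7 CPM to 54.1, 53.4, 43.7 and 18.8 CPM (-0.89 ± 0.11, adjusted p = 6.05e-05). The drop was largest in pair 2 (-1.41) and smallest in pair 4 (-0.39), where the level was low in both arms. LINC00977, which RefSeq places on the same chromosome (8), fell by 1.00 ± 0.19 at a level of 1.05 to 5.17 CPM. MALAT1, an abundant nuclear RNA, rose from 6128, 4109, 3782 and 2232 CPM to 8411, 6935, 5247 and 2106 CPM (0.40 ± 0.09, adjusted p = 0.0220), with pair 4 in the other direction. RAB30-AS1 rose by 0.47 ± 0.08. Without pair 3, 1 of these RNAs rose and 2 fell.

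The RefSeq promoters (250 bases before to 50 after the start, GRCh38.p14, the assembly of hg38) of the lowered genes held GC boxes more often. A GC box (GGGCGG on either strand), which binds factors of the SP family, was found in 79.4% of 141 promoters of lowered genes, in 63.3% of 109 promoters of raised genes and in 64.1% of 12038 promoters of all genes tested. Median GC content was 68.7%, 66.0% and 64.0% in the same order. The CCAAT box (CCAAT on either strand) was found in 43.3%, 23.9% and 36.4%. The cAMP response element (TGACGTCA) was found in 0%, 4.59% and 2.96%. These shares rest on few promoters, 0 of 141 for lowered genes and 5 of 109 for raised genes. The shorter form of this element (TGACGT) showed no such contrast, at 9.93%, 9.17% and 10.7%. Other motifs were searched as well, and those given here are a selection. The antioxidant response element core (TGACNNNGC on either strand) was found in 22.0% of promoters of raised genes, in 15.6% of those of lowered genes and in 14.8% of all. Without the NRF2 list the share among raised genes was 21.2% (21 of 99). These shares are descriptions, and a match is not shown to be a binding site. The promoter of CROCC, the raised gene with the smallest p outside the NRF2 list that holds this core, is printed 5′ to 3′ with the core in capitals. This stretch lies inside the RefSeq span of CROCC (16914085 to 16972964) and not at the 5′ end of that span. For 3 lowered transcription factor genes the GC boxes are in capitals, 5 in IKZF1, 4 in HOXA13 and 2 in CEBPA.
CROCC, chr1:16921681-16921980, plus strand: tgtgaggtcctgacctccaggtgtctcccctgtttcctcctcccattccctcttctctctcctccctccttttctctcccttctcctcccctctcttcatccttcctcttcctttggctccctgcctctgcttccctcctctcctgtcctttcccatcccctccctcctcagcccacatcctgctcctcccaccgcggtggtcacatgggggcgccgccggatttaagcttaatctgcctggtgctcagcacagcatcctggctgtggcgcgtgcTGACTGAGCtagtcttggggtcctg
IKZF1, chr7:50304466-50304765, plus strand: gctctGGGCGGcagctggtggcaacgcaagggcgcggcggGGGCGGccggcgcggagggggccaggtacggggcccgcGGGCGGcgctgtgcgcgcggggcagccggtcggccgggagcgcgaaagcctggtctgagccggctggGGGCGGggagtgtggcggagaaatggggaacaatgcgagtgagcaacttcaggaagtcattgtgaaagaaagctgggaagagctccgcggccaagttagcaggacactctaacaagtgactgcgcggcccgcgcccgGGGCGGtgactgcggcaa
HOXA13, chr7:27200042-27200341, minus strand: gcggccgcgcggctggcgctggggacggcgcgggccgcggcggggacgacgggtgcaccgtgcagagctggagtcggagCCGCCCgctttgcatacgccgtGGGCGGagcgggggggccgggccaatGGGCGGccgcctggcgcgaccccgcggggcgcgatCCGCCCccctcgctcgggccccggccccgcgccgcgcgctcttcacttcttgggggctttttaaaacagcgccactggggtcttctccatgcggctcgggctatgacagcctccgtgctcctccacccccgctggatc
CEBPA, chr19:33302485-33302784, minus strand: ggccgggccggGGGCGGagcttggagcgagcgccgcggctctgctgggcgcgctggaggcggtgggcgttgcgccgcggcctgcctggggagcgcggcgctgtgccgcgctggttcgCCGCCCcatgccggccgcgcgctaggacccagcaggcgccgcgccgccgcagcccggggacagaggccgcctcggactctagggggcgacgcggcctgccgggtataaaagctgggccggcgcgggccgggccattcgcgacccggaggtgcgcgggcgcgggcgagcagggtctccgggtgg

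The same treatment of K562 offers a second line in which to read these genes, with no library shared. Of the 141 raised genes, 131 were also tested in K562, and 76.3% of them were higher with Ro there, against 54.2% of all 14320 genes tested in both lines. Of the 176 lowered genes, 154 were tested in K562 and 66.2% were lower, against 45.8% of all. At an unadjusted p under 0.05, 15 of the 131 raised genes were higher and 0 lower in K562, and 4 of the 154 lowered genes were lower and 2 higher. Of all 14320 genes, 127 were higher and 174 lower in K562 at that p. A test of the difference between the lines (the interaction of line and treatment in edgeR, 16 libraries) called 0 of 16224 genes (0%), with 975 at an unadjusted p under 0.05 and 3 called in DESeq2, among them IRF2BP2 and FGF16. The edgeR test thus passed no gene, which does not show that the lines respond alike. Its unadjusted p was under 0.05 for 45 of the 141 raised genes, 59 of the 176 lowered genes and 916 of all 15031. The called genes were chosen for their change in MOLM13, which raises these numbers. Side by side, CDKN1A gave 0.68 ± 0.08 in MOLM13 and 0.01 in K562, and XBP1 gave -0.59 ± 0.08 and 0.01, and neither difference passed the adjusted test in edgeR. MYB fell by 0.51 and gave -0.57 ± 0.15 in K562, and BCL2 gave -0.55 and -0.54 ± 0.23. GADD45A and CROCC gave 0.52 ± 0.24 and 0.60 ± 0.17 in K562. When K562 was tested by itself, 0 of its 15227 genes passed the threshold of 0.05 after adjustment. The K562 values of these genes thus give a direction and a size, and none of them is a call. IRX3, ELANE, CEBPA, CYP1B1 and PHLDA3 were too low in K562 to be tested there.

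**Figure D5:**
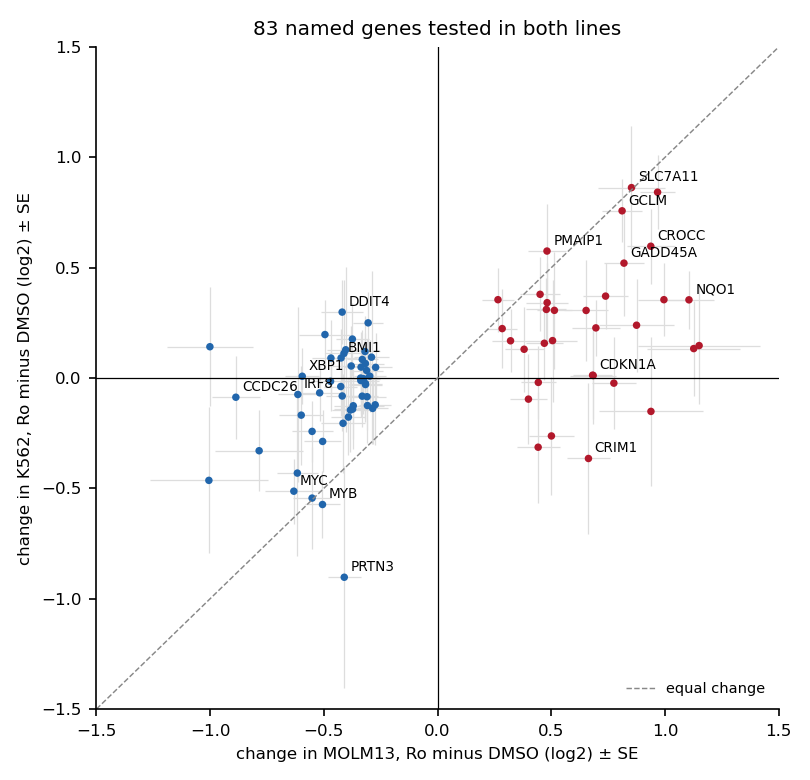
Each of 83 named genes tested in both lines is placed by its change in MOLM13 (x axis) and in K562 (y axis), both log2 Ro minus DMSO with SE, red for genes that rose and blue for those that fell in MOLM13. Of the 83, which were chosen for their change in MOLM13, 57 have the same sign in both lines.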

How the data were processed

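The authors deposited raw counts per gene for 16 libraries made with a 3′ end kit. The submitters' processing notes name Trim Galore, STAR 2.5.3a, SAMtools 1.5 and hg38, and the counting program and its strand setting are not given in the sources used here, so overlapping and antisense genes cannot be told apart. Of 98 named genes, 49 overlap another RefSeq gene. Gene symbols were matched by Entrez ID, and 1425 of 25221 genes had no symbol and 677 shared one.

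Groups and pair numbers came from the titles. Genes that reached 10 counts in 4 or more of the 8 MOLM13 libraries were tested in edgeR 4.0.16 (R 4.3.3) with TMM scaling, the quasi-likelihood F test, pair as a block and Benjamini-Hochberg adjustment over all 15031 genes, at a threshold of 0.05. The numbers pair the libraries: after removal of the arm means, same-numbered libraries correlated at 0.624, 0.441, 0.386 and 0.831, against a mean of -0.162 between different numbers. All libraries of an arm differed beyond counting noise (chi-square over its degrees of freedom was 17.6 or more). A count of 3 corresponded to 0.0750 to 0.348 CPM, which covers counting error only.

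Named genes had a symbol, an adjusted p under 0.05 and the same sign in all pairs, and were in each direction the 12 with the smallest p and the 5 with the largest change outside the NRF2 and MSI2 lists, plus up to 3 called genes of each list. Other genes were named after their values had been seen. Members and lists were chosen with earlier results of these data known. Alternatives were limma-voom (limma 3.58.1), DESeq2 1.42.0, other scalings and filters, a robust fit, removal of a lowess trend (span 0.3) and leaving out pairs or libraries. The edgeR code was tested on simulated data. Promoters came from RefSeq (GRCh38.p14), and 17973 genes of the table matched one. Some items are not reported here.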

Additional observations from a re-analysis of the deposited data

Results flagged for a closer look

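Of 200 groups of 4 libraries (the DMSO and the Ro arm of each gene tested for this), 26 held a library far from the other 3. Far means a gap to the nearest, as a share of the range, above Dixon's critical value. About 1 in 20 groups of independent normal values pass that value. The groups here reuse the same 8 libraries, so whether 26 is an excess was not tested. Most of the 26 were libraries of pair 4 that lay high, for genes that fell with Ro. With DMSO, pair 4 was high for XBP1 (457 CPM against 87.7 to 134), GFI1 (142 CPM against 36.8 to 54.7), CDKN3 (35.7 CPM against 23.2 to 25), CDCA7 (86.9 CPM against 30.6 to 38.3) and HMMR (51.3 CPM against 30.5 to 31.5). The same library was high for HNRNPU (1380 CPM against 905 to 955), DDIT4 (856 CPM against 76.2 to 136), FARSA (393 CPM against 172 to 208), NAE1 (173 CPM against 87.4 to 100) and UBR7 (55.6 CPM against 31.6 to 33.4). The same library was high for EGR1 (26.3 CPM against 1.88 to 5.24), PRPS1 (57.6 CPM against 26.2 to 31.1) and BOP1 (247 CPM against 136 to 137). With Ro, pair 4 was high for XBP1 (273 CPM against 54.3 to 88.1), PMAIP1 (61.1 CPM against 40.4 to 43.9), CDKN3 (26.3 CPM against 16.7 to 17.7), KNSTRN (22.1 CPM against 14.2 to 15) and DDIT4 (569 CPM against 44.7 to 106). The Ro library of pair 4 was also high for POP5 (35.1 CPM against 19.1 to 21) and MRPL24 (82.2 CPM against 39.7 to 46.3). Of these genes, PMAIP1 rose with Ro and the others fell. The other cases were raised genes or IRF8. GCLM was at 23.1 CPM in the DMSO library of pair 4, against 50.9 to 55.8 CPM in the others of that arm. GADD45A was at 24.8 CPM in the Ro library of pair 1, against 30.7 to 31.7 CPM in the others of that arm. CROCC was at 10.5 CPM in the Ro library of pair 4, against 17.1 to 18.1 CPM in the others of that arm. CDKN1A was at 37.5 CPM in the DMSO library of pair 1, against 88.3 to 93.9 CPM in the others of that arm. IRF8 was at 50.2 CPM in the Ro library of pair 1, against 89.4 to 92.8 CPM in the others of that arm. CNTNAP3B was at 2.19 CPM in the DMSO library of pair 2, against 1.05 to 1.17 CPM in the others of that arm.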

How the results depend on the processing

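No named gene changed direction under a setting that gave it a value; of the 98, DESeq2 with the block gave 88, a minimum of 50 counts 92, and the fits without pair 3 and without pair 4 gave 97 each. With no replicate block, 0 genes rose and 0 fell, and all 98 lost their call, whereas the dispersion (biological coefficient of variation) was 0.0814 with the block and 0.254 without it. Of the 317 calls, DESeq2 with the block kept 216 and limma-voom 307. DESeq2 with the block gave 64 higher, and without the count filter 244 were higher and 392 lower. Upper-quartile scaling gave 114 lower, total-count scaling 76, and total-count scaling after LOC100507412 was left out 66. The median change of all genes was 0.00155 with TMM, 0.0269 with upper-quartile scaling, 0.0554 with total-count scaling and 0.0631 with the last of these. Without 1 pair, 27 to 155 genes rose and 22 to 203 fell, and without 1 library, 28 to 158 rose and 22 to 214 fell. The lowest numbers came without pair 3 or either of its libraries. Named genes lost their call in 59 cases without pair 3, 46 without pair 1, 33 without pair 2, 17 without pair 4 and 22 with total-count scaling. The test of a difference between lines called 3 genes in DESeq2. The cause of these shifts was not tested. Counting error weighs most on genes under 5 CPM, which were 19 of the raised and 7 of the lowered genes.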

Other observations

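The place of pair 4 among the libraries moved with the direction of the calls. Its DMSO library was the highest of the 4 DMSO libraries for 143 of the 176 lowered genes (81.2%) and for 37.0% of all genes tested, and it was the lowest for 107 of the 141 raised genes (75.9%) and for 38.3% of all. When calls were made from pairs 1 to 3 alone, 203 genes fell and 155 rose. The DMSO library of pair 4, which took no part in those calls, was then the highest for 58.6% of the lowered genes and the lowest for 64.5% of the raised genes. Its Ro library was the highest for 74.9% and the lowest for 81.9%. The part of this in the results was not tested.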
